A study of Mus musculus with 24 samples.

Results

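The comparison described here set 6 skin libraries of mice that had relapsed 8 weeks after the end of JAK1 inhibition (8w off Tx) against 6 libraries of mice with long-standing alopecia areata (AA), 12 of the 24 RNA-seq libraries in the series. Members were chosen by their labels alone, and every gene was compared. All mice were female C3H/HeJ animals in which hair loss had been induced by a skin graft, and dorsal skin was taken at week 12 from mice of about 30 weeks of age in both groups. AA mice were untreated, although their sample titles carry the abbreviation Vec, and were followed for 12 weeks. The 8w off Tx mice ate the JAK1-selective compound Cmpd A by the oral route at about 100 mg/kg once daily for 4 weeks, gave a skin biopsy at week 4, and then received no drug until week 12. The 6 systemic JAK1i libraries are the week 4 biopsies of these same mice, and 6 healthy C3H/HeJ mice complete the series. Both groups are graft recipients of a single inbred strain and sex, and the methods describe the RNA as partly degraded. The treated mice still carried some hair before dosing, whereas the AA mice had none. At week 12 the study's hair score was still higher in every 8w off Tx mouse than in any AA mouse. The paper nevertheless describes that score as back at the level of untreated mice.

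Alopecia areata is an autoimmune disease in which cytotoxic T cells attack growing hair follicles. Interferon gamma from these cells signals through JAK1 and JAK2, which raises chemokines and antigen presentation in the follicle and draws in further T cells. Inhibition of JAK1 interrupts this loop, and the comparison asks whether skin in which the disease has come back differs from skin in which it never left.

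The 12 libraries held 3444193 to 8472874 counts, and the mean totals of the groups differed by 69090 counts (two-sided exact permutation test over libraries, p = 0.948). Krt14 and Krt10, the keratins of basal and suprabasal epidermis, and Col1a1, the main collagen of dermal fibroblasts, were read in every library at 1869 to 3955, 1321 to 3951 and 598 to 2346 CPM (read counts scaled by the normalised library size). The root mean square distance between libraries in log2 CPM had a median of 0.650 between the groups, 0.613 within AA and 0.683 within 8w off Tx, against 0.988 between 8w off Tx and healthy skin. Libraries A and E of 8w off Tx stood apart, with mean distances to the AA libraries of 0.859 and 0.937 against 0.573 to 0.673 for the other 4.

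Few genes passed the threshold between relapsed skin and long-standing disease. Of 16248 genes tested, 222 (1.37%) passed an adjusted p below 0.05 in edgeR's quasi-likelihood test, 118 of them higher in 8w off Tx (0.726%) and 104 lower (0.640%), while 3011 had an unadjusted p below 0.05. Only 65 of the 222 genes changed by more than 2-fold, 38 upwards and 27 downwards. At the thresholds of the study (adjusted p below 0.001 and a change over 4-fold) 4 genes remained (0.0246%), namely the clock genes Per2, Per3 and Dbp and the Wnt ligand Wnt16, all higher in 8w off Tx. The 6 libraries of one group lay entirely above or below those of the other in 208 genes (1.28%), of which 103 were also called. For 13259 genes (81.7%) the 95% interval of the change lay inside 2-fold in both directions, and the median log2 fold change over all genes was -0.0073.

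The number of genes called depended on the test, on single libraries and on which libraries entered the fit. DESeq2, the tool the study used, called 613 genes, 362 higher and 251 lower, of which 12 passed the study thresholds. Leaving out 8w off Tx library A, B, D, E or F gave 98, 493, 81, 130 or 376 genes, and leaving out AA library A, B, D, E or F gave 352, 68, 431, 72 or 138. Genes past the study thresholds numbered 1 without 8w off Tx A, 8w off Tx E or AA B, and 2 without 8w off Tx D or AA D, E or F. A fit of only the 12 libraries tested 15116 genes and called 18, 8 higher and 10 lower. The fit of 24 libraries holds the 8w off Tx mice a second time, as systemic JAK1i biopsies. Without those biopsies, a setting added after the data were seen, each mouse entered once and 49 genes were called, 29 higher and 20 lower, of which 2 passed the study thresholds. Of the 38 called genes named by rule, 16 were called with every single library left out, and the account below leads with those. Without the systemic JAK1i libraries 14 of these 16 were called, all but Aqp3 and Has3, and the other 22 named genes lost their calls as well. The adjusted p values of the 24 lost calls were then 0.0539 to 0.126. Called genes outside that rule, such as Arntl, Cry2, Ciart, Fabp5 and Scarna6, were not followed one by one through these fits. Every value here is relative to all counted RNA of a bulk sample, in which fewer cells of a type and less RNA per cell cannot be told apart.

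**Figure D1:**
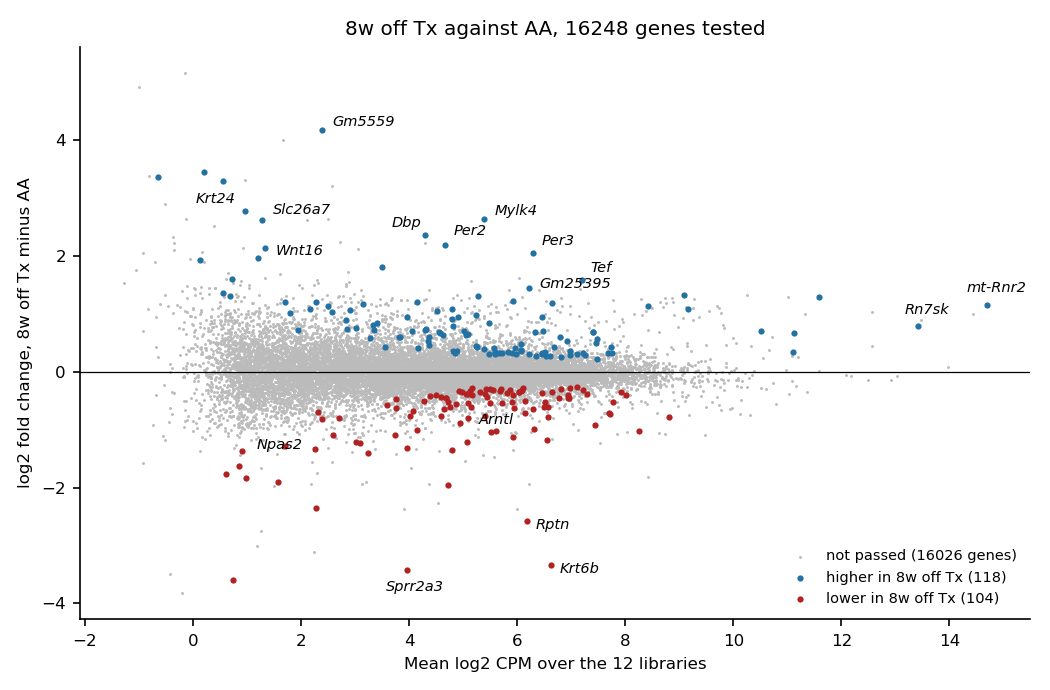
Mean log2 CPM over the 12 libraries (x axis) and log2 fold change of 8w off Tx minus AA (y axis) for the 16248 genes tested, 1 point a gene, with the 118 genes called higher and the 104 called lower in colour. Called genes are few in both directions, with Per2, Per3 and Dbp among the largest rises and Krt6b, Sprr2a3 and Rptn among the largest falls.

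The clearest difference was in the circadian clock. In this feedback loop the transcription factors Arntl (also called Bmal1), Clock and Npas2 bind E-boxes and switch on the Per and Cry repressors, the nuclear receptors Nr1d1 and Nr1d2, and the D-box factors Dbp, Tef and Hlf, whose RNA levels rise and fall over each day in skin as in other tissues. Of 17 clock genes tested, 9 rose in 8w off Tx, 2 fell and 6 did not pass, with a median log2 fold change of 0.84 against -0.0073 over all genes. Of all genes tested, 0.726% rose and 0.640% fell. The groups did not overlap in 10 of the 17, against 1.28% of all genes. The genes that fell, Arntl and Npas2, are the activators of the loop, and those that rose include repressors of the loop and D-box factors. The list was chosen with earlier results of these data known.

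Promoter sequences of the clock genes are shown because E-boxes and D-boxes are the letters through which these factors act on one another. RefSeq promoters of build GRCm38.p6 were found for 14 of the 17 genes, and Per2 was not among them. The 250 bases before the gene start were searched. The E-box CACGTG, which reads alike on both strands, was present in 5 of these 14. It was present in 6.05% of all 27025 promoters and in 8.18% of the 11540 promoters of genes tested here. The D-box TTATGTAA or its reverse complement TTACATAA was present in 1 of 14 and in 0.862% of all promoters. The E-box was found in Ciart, Tef, Per1, Cry1 and Bhlhe41, of which the last 3 did not pass, and the D-box in Per3. The windows of Dbp, Hlf, Nr1d2 and Cry2, which rose, and of Arntl and Npas2, which fell, hold none of these letters. Ciart, a repressor of the loop, has 3 E-boxes, starting 116, 58 and 44 bases before the gene start. Per3, a Period repressor, has 2 D-boxes at 205 and 158 bases, and Tef, a D-box factor, has 1 E-box at 127 bases. A match describes letters only, not binding. The 3 windows of genes that rose and hold a motif follow, with the motifs in capitals, at chr3:95882229-95882478 on the minus strand for Ciart, chr4:151044666-151044915 on the minus strand for Per3 and chr15:81802423-81802672 on the plus strand for Tef.
Ciart: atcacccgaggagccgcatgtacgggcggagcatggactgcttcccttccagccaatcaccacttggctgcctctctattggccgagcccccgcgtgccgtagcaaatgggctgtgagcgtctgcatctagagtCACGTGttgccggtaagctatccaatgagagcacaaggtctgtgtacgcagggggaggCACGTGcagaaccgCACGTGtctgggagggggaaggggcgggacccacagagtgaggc
Per3: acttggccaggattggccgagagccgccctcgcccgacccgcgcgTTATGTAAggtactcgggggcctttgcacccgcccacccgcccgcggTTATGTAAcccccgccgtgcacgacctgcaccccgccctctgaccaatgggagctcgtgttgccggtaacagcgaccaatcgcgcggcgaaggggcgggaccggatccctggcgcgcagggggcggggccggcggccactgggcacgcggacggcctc
Tef: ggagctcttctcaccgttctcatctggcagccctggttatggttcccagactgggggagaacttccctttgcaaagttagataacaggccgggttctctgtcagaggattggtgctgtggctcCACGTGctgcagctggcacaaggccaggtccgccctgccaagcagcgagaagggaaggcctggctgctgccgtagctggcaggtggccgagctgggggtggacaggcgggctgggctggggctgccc

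Among the Period repressors, Per3 lay at 27.2 CPM in the lowest AA library, a median of 38.4 and 52.2 in the highest, and at 104, 175 and 218 CPM in 8w off Tx. Every 8w off Tx library was above every AA library, libraries A, D and E being highest, and Per3 rose by 2.05 on the log2 scale (SE 0.21, adjusted p = 1.32e-05). Healthy skin held 94.5 CPM ± 24.7 (SD, n = 6) of Per3 and systemic JAK1i skin 146 ± 19.9. Per2 ran from 7.34 through a median of 12.9 to 17.1 CPM in AA and from 39.3 through 57.0 to 70.6 in 8w off Tx, again without overlap, a log2 rise of 2.18 (SE 0.24, adjusted p = 2.32e-05). Per1 did not overlap between the groups either, at 49.7 to 72.3 CPM in AA and 90.1 to 128 in 8w off Tx, but its log2 fold change of 0.64 did not pass (adjusted p = 0.175). The repressor Cry2 rose by 0.84 without overlap (adjusted p = 0.00233), while its relative Cry1 had a log2 fold change of 0.11 (adjusted p = 0.799).

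The D-box factors and nuclear receptors showed the same order of the groups. Dbp lay at 4.40, 8.83 and 16.1 CPM (lowest, median and highest) in AA and at 23.6, 46.3 and 76.7 in 8w off Tx. No library overlapped, A, D and E were again the highest of 8w off Tx, and the log2 rise was 2.36 (SE 0.33, adjusted p = 0.000572). Tef lay at 58.9, 87.0 and 112 CPM in AA and at 170, 268 and 356 in 8w off Tx, a rise of 1.58 (SE 0.20, adjusted p = 0.00024). Hlf rose by 1.31 (adjusted p = 0.00318) and Nr1d2, a repressor of Arntl, by 1.18 (adjusted p = 0.0011), both without overlap, and both calls were lost in the fit of only the 12 libraries (adjusted p = 0.102 and 0.0596). Its partner Nr1d1 had a log2 fold change of 0.62 that did not pass (adjusted p = 0.0855). The repressor Ciart rose by 0.89 (adjusted p = 0.0178), with overlapping libraries.

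The activators went the other way. Arntl lay at 33.5, 47.0 and 52.9 CPM in AA and at 20.2, 26.7 and 28.8 in 8w off Tx, every relapsed library below every AA library, and fell by 0.80 on the log2 scale (SE 0.12, adjusted p = 0.00119). Npas2 lay at 5.14, 6.82 and 9.52 CPM in AA and at 2.11, 2.35 and 4.44 in 8w off Tx and fell by 1.34 (SE 0.27, adjusted p = 0.014). That call was lost without 8w off Tx A and E together (adjusted p = 0.0603). It was also lost in the fits of the deposited TPM values, the centred one included. Their partner Clock had a log2 fold change of -0.13 (adjusted p = 0.34).

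Set against the same 6 healthy libraries, and so not as independent comparisons, AA skin had lower Dbp (log2 fold change -1.92, adjusted p = 8e-05), Tef (-1.43, adjusted p = 1.29e-05) and Per3 (-1.25, adjusted p = 7.49e-05). The 8w off Tx values against healthy skin were 0.44 for Dbp (adjusted p = 0.273), 0.15 for Tef (adjusted p = 0.589) and 0.80 for Per3 (adjusted p = 0.00471). Arntl was -0.08 in AA and -0.88 in 8w off Tx relative to healthy skin, the latter at an adjusted p of 1.9e-05. Over the 17 genes the median was -0.85 in AA and 0.24 in 8w off Tx.

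The sources used here give no hour of sampling, so hour and group cannot be told apart. Libraries A, D and E of 8w off Tx also had the most skeletal muscle RNA, and with its level as a covariate, a setting added after the data were seen, 11 clock genes were called and Per3 and Dbp rose by 2.00 and 2.26. Without 8w off Tx A and E together 8 clock genes were called, in the fit of only the 12 libraries 6, and without the systemic JAK1i libraries 10. Per2, Dbp and the epidermal gene Rptn were called under all 28 alternative settings, 12 of which left out a library.

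**Figure D2:**
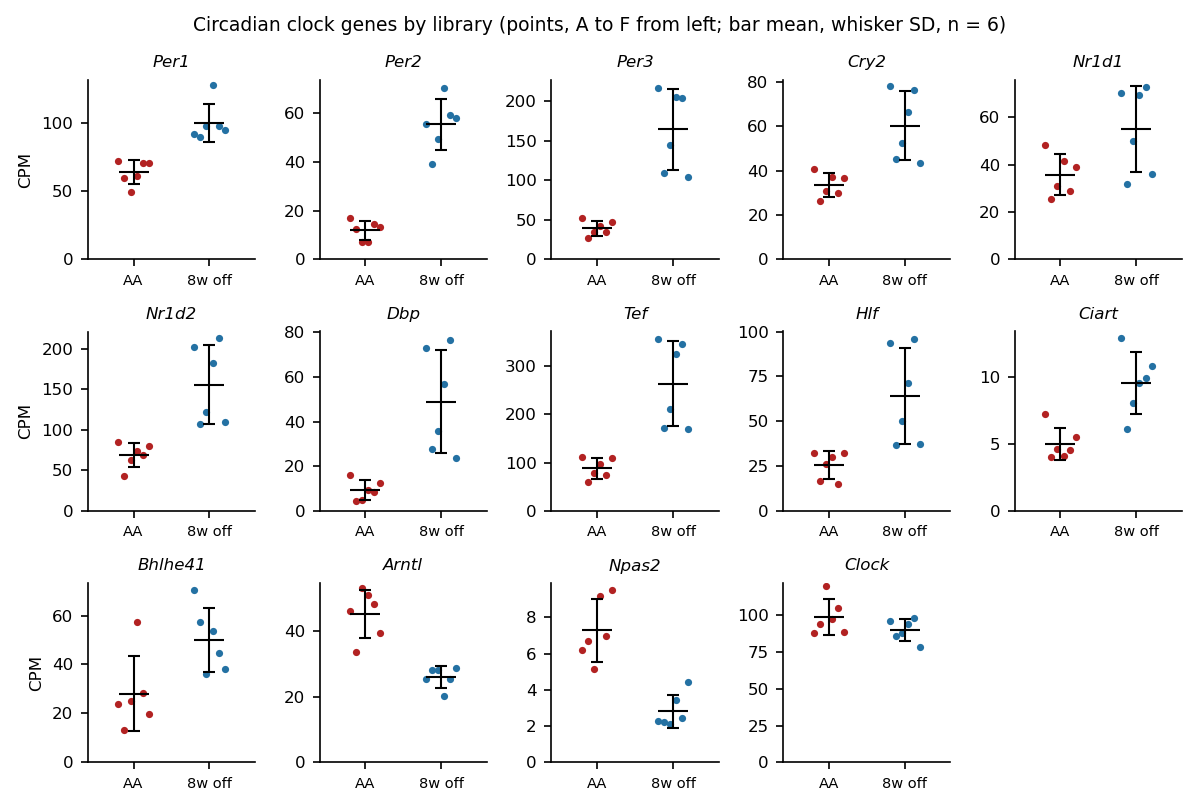
CPM (y axis, from 0) of 14 clock genes in the 6 AA and 6 8w off Tx libraries, with points for libraries A to F from left to right, bars for the means and whiskers for the SD. Per2, Per3, Dbp, Tef, Hlf, Nr1d2, Cry2 and Per1 lie higher in every 8w off Tx library than in any AA library, and Arntl and Npas2 lie lower.

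Among the genes that fell most in relapsed skin were several that keratinocytes make. Rptn, which encodes repetin of the cornified envelope, lay at 96.7, 142 and 394 CPM (lowest, median and highest) in AA and at 20.5, 25.5 and 64.4 in 8w off Tx. The groups did not overlap, and Rptn was 5.96-fold higher in AA (log2 fold change -2.58, SE 0.38, adjusted p = 0.00119). Healthy skin held 45.0 CPM ± 11.3 (SD, n = 6). The 8w off Tx median lay under this healthy mean and the highest 8w off Tx library above it, while every AA library lay above it. Krt6b, a keratin of the companion layer that wounded or hyperproliferative epidermis also makes, lay at 97.8, 479 and 943 CPM in AA and at 6.66, 34.6 and 130 in 8w off Tx. Only 8w off Tx library E, at 130 CPM, reached into the AA range, and Krt6b fell by 3.34 on the log2 scale (SE 0.71, adjusted p = 0.0309). Without 8w off Tx A, C or D or AA B, E or F this call was lost, with an adjusted p of at most 0.082. Sprr2a3, a small proline-rich protein of the cornified envelope, had a median of 86.9 CPM in AA and 5.07 in 8w off Tx (log2 fold change -3.43, SE 0.80, adjusted p = 0.0377), with AA libraries as low as 3.43 CPM. That call was lost without 8w off Tx A, D or E or AA B, E or F (adjusted p up to 0.0992). Krt6b with Krt6a, and the Sprr2a copies, are near-identical genes between which reads may be split.

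Other genes that fell were Degs2, Aqp3, Has3 and Serpinb6c. Degs2, an enzyme of skin ceramide synthesis, lay at 8.81 to 22.7 CPM in AA and 2.70 to 8.18 in 8w off Tx without overlap and fell by 1.41 (SE 0.27, adjusted p = 0.0105). Aqp3, the water and glycerol channel of the epidermis, ran from 74.8 to 211 CPM in AA and from 54.7 to 80.3 in 8w off Tx and fell by 1.18 (adjusted p = 0.0105). Has3, a hyaluronan synthase, fell by 1.21 (adjusted p = 0.0113), from a median of 62.3 CPM to 25.2. All 3 calls held with each single library left out and were lost in the fit of only the 12 libraries (adjusted p 0.0798 to 0.111). Those of Aqp3 and Has3 were also lost without the systemic JAK1i libraries (adjusted p 0.0539 for each). Serpinb6c, a protease inhibitor, fell by 1.90 (adjusted p = 0.0184), a call lost without AA E (adjusted p = 0.0631). Fabp5, a fatty acid binding protein of keratinocytes, and Smpd1, the acid sphingomyelinase, were looked at after their values were seen and fell by 1.03 (adjusted p = 0.0353) and 0.71 (adjusted p = 0.000829). Neither call was followed through the alternative fits.

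Most genes in the list of epidermal differentiation did not pass. Of 21 tested, 2 fell (Rptn and the desmosomal cadherin Dsc1), none rose and 19 did not pass, with a median of -0.46, while 0.640% of all genes fell. The list does not hold every such gene, and Sprr2a3 is outside it. So are Crct1, Dsg1b and Lce3d, which were called lower and were looked at after their values were seen. Their medians were 243, 258 and 3.53 CPM in AA and 117, 151 and 0.274 in 8w off Tx. Krt10 had a log2 fold change of -0.26 (adjusted p = 0.614) and Krt6a, at 712 to 1704 CPM in AA and 321 to 980 in 8w off Tx, one of -1.09 (adjusted p = 0.0527). Dsc1 fell by 0.78 (adjusted p = 0.0204), and its call was lost without 8w off Tx A or D or AA B, E or F (adjusted p up to 0.0678). Within 8w off Tx the mean log2 CPM of the list was highest in libraries A (7.82) and E (8.16) against 7.20 to 7.47 in the other 4, and without A and E the median of the list was -0.66.

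Krt24, Wnt16, Slc26a7 and Cyp2e1 rose in relapse. Krt24, a keratin of the upper bulge, where the resting stem cells of the follicle sit, lay at 0, 0.707 and 1.32 CPM in AA (19 counts over the group) and at 2.70, 4.49 and 5.61 in 8w off Tx (128 counts). The groups did not overlap, the log2 rise was 2.78 (SE 0.54, adjusted p = 0.00493), and healthy skin held 16.5 CPM ± 6.02 (SD, n = 6). Wnt16, a secreted Wnt ligand, lay at 0.529, 0.988 and 1.71 CPM in AA and at 2.79, 4.36 and 7.08 in 8w off Tx, a rise of 2.13 without overlap (SE 0.30, adjusted p = 0.000374). Healthy skin held 8.54 CPM of Wnt16 and systemic JAK1i skin 3.95. Both calls held with each single library left out, and that of Krt24 was lost in the fit of only the 12 libraries (adjusted p = 0.0516).

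Both genes stayed below healthy skin in each diseased group. Against the shared healthy libraries Krt24 was -4.68 in AA and -1.91 in 8w off Tx on the log2 scale (adjusted p = 2e-07 and 0.000269), and Wnt16 was -3.01 and -0.88 (adjusted p = 1.02e-07 and 0.00485). The anion transporter Slc26a7 rose by 2.61 (adjusted p = 0.0317) from a median of 0.517 CPM to 5.03, with healthy skin at 50.2. Its 8w off Tx library D, at 18.4 CPM, stood far above the other 5, and without it, or without AA B, E or F, the call was lost (adjusted p up to 0.105). Cyp2e1, a cytochrome P450, lay at 1.15 to 12.4 CPM in AA and 12.9 to 42.0 in 8w off Tx and rose by 1.81 (adjusted p = 0.0306), a call lost without 8w off Tx A, D or E or AA B, E or F (adjusted p up to 0.0811).

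Of the 12 bulge genes tested, Krt24 alone rose and 11 of 12 fold changes were positive, with a median of 0.46. Krt15, a further bulge keratin, lay at 109 to 384 CPM in AA and 331 to 775 in 8w off Tx and did not pass (log2 fold change 0.99, adjusted p = 0.0749). Its healthy mean was 1472 CPM. The stem cell marker Cd34 had a log2 fold change of -0.10 (adjusted p = 0.874) and Lgr5 one of 0.08 (adjusted p = 0.906).

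**Figure D3:**
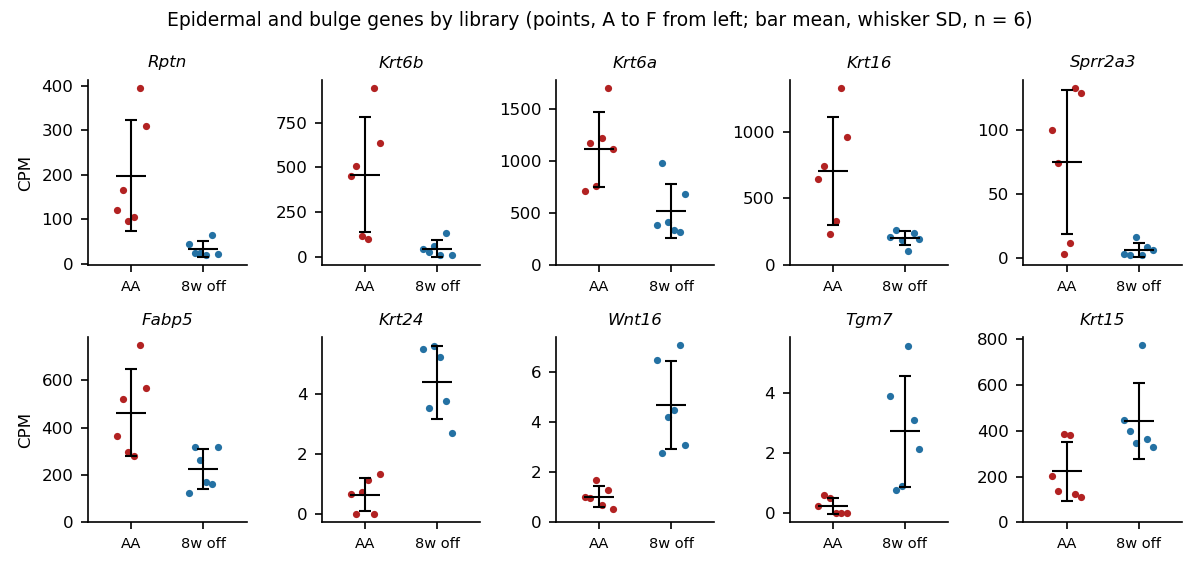
CPM (y axis, from 0) of 6 epidermal genes and of Krt24, Wnt16, Tgm7 and Krt15 in the 6 AA and 6 8w off Tx libraries, with points for libraries A to F from left to right, bars for the means and whiskers for the SD. Rptn lies between 20.5 and 64.4 CPM in 8w off Tx and at or above 96.7 in AA, and Krt24 and Wnt16 are higher in every 8w off Tx library than in any AA library.

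Immune genes were tested as 20 lists. Over the 266 tested members, 1 gene fell, none rose and 265 did not pass, against 1.37% of all genes called. The median log2 fold change was -0.16, with 196 negative and 70 positive values. The 95% interval lay inside 2-fold for 170 of the 266 (63.9%), so for the rest a change of 2-fold was within the interval. The gene that fell was Ccl22, a chemokine of dendritic cells and macrophages that attracts T cells through Ccr4. It lay at 10.5, 19.1 and 29.8 CPM in AA and at 6.66, 9.85 and 11.7 in 8w off Tx, with healthy skin at 6.67, and fell by 1.09 (SE 0.25, adjusted p = 0.0317). The call was lost without 8w off Tx A, C, D or E or AA B or E, with an adjusted p of at most 0.0939.

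Genes of the cytotoxic and interferon response had wide and overlapping ranges. Cd8a, a co-receptor of cytotoxic T cells, lay at 2.20, 23.1 and 55.4 CPM in AA and at 7.92, 25.99 and 41.8 in 8w off Tx, against a healthy mean of 0.510. Both disease groups thus lay above the healthy mean in every library, and their difference of -0.07 had a 95% interval from -0.99 to 0.85 (adjusted p = 0.955). Gzmb, the granzyme that these cells use to kill, had a log2 fold change of -0.43 (interval -1.59 to 0.73, adjusted p = 0.723). Ifng, which encodes interferon gamma, lay at 0.264 to 5.16 CPM in AA and 0.360 to 5.22 in 8w off Tx (log2 fold change -0.35, interval -1.60 to 0.89, adjusted p = 0.796). Its targets Cxcl9 and Cxcl10, chemokines for T cells, had values of 0.10 (interval -0.99 to 1.19) and 0.19 (interval -0.60 to 0.98). In 8w off Tx, Cxcl9 was lowest in library E at 18.1 CPM and highest in library B at 392. Jak1, the kinase that Cmpd A inhibits, had a narrower interval from -0.20 to 0.12 around -0.04.

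By list, none of the 35 interferon-stimulated genes, 18 interferon-inducible GTPases, 19 T cell receptor genes, 12 genes of cytotoxic lymphocytes or 19 JAK, STAT and SOCS genes passed, with medians of -0.16, 0.00, -0.15, -0.08 and -0.02. The median of the interferon-stimulated genes was 0.10 without 8w off Tx A and E. All 10 genes of MHC class II and all 18 of monocytes and macrophages had negative values, with medians of -0.43 and -0.37, and none passed. H2-Ab1, a class II chain, had a log2 fold change of -0.59 (adjusted p = 0.225). The ALADIN cytotoxic score, built from levels of Cd8a, Gzmb, Icos and Prf1 standardised to healthy skin, ran from 3.31 to 10.5 in AA with a median of 7.78 and from 4.15 to 8.75 in 8w off Tx with a median of 6.13. These ranges overlapped, and both lay above the healthy range, which ended at 0.558.

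**Figure D4:**
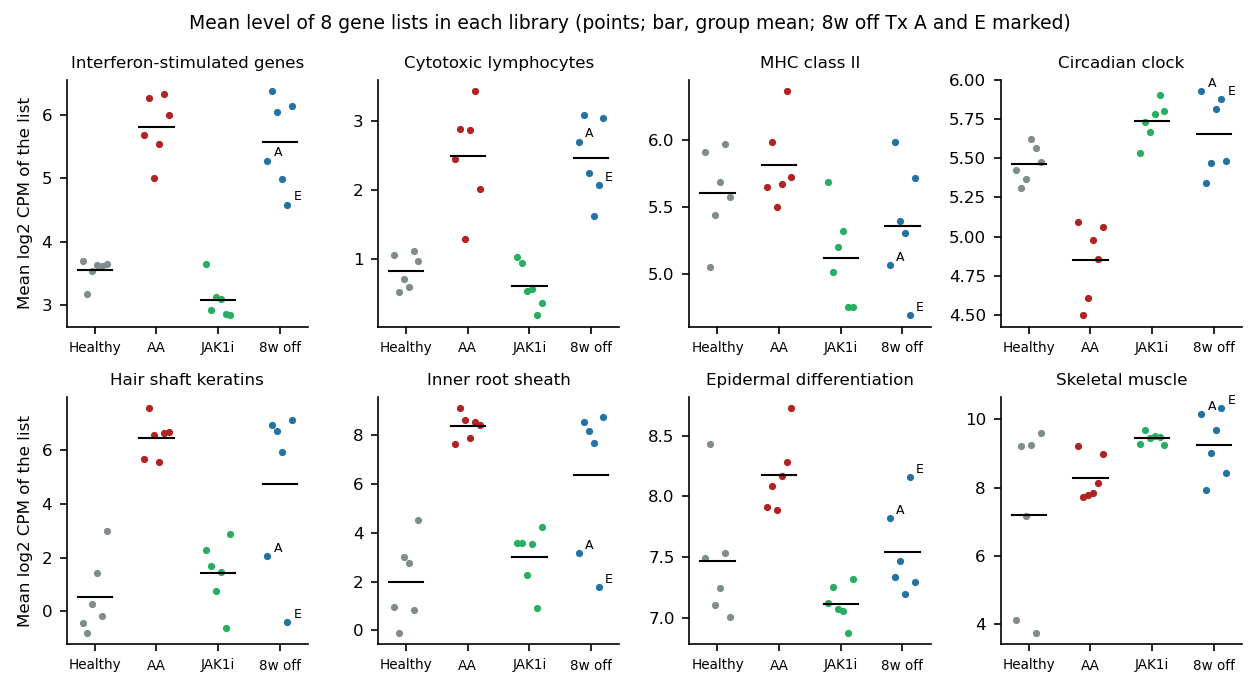
Mean log2 CPM (y axis) of 8 gene lists in each of the 24 libraries by group, with points for libraries, a bar for each group mean, and 8w off Tx libraries A and E marked. AA and 8w off Tx overlap in the interferon and cytotoxic lists, whereas A and E fall far below the other 8w off Tx libraries in hair shaft keratins (2.06 and -0.41 against 5.95 to 7.14) and inner root sheath (3.15 and 1.79 against 7.66 to 8.76).

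Genes of the growing hair divided the relapsed libraries among themselves. Hair shaft keratins, keratin-associated proteins and inner root sheath proteins are made only while a follicle grows. In 4 of the 6 relapsed libraries the mean log2 CPM of the 15 hair shaft keratins was 5.95 to 7.14, inside the AA range of 5.56 to 7.56, and in libraries A and E it was 2.06 and -0.41, inside the healthy range of -0.79 to 2.98. Krt71, a keratin of the inner root sheath, lay at 1558 to 4627 CPM in AA and at 1444 to 3342 in 8w off Tx B, C, D and F, but at 39.9 in A and 9.51 in E. Its log2 fold change of -0.73 had an interval from -2.86 to 1.41 (adjusted p = 0.753). Krt32, a cuticle keratin of the hair shaft, had 2.92 CPM in A and 0.885 in E against 45.7 to 85.8 in the other 4 (log2 fold change -0.44, adjusted p = 0.685). The hair shaft keratins, 52 keratin-associated proteins and 12 inner root sheath genes had medians of -0.40, -0.64 and -0.67, none passed, and without A and E the medians were 0.16, -0.11 and -0.13.

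Together with 12 transcription factors of the hair matrix these lists held 91 tested genes, of which 1 rose, against 0.726% of all genes that rose, and for only 8 (8.79%) the interval lay inside 2-fold. The gene that rose was Gata3, a regulator of the inner root sheath and of T cells, with a log2 rise of 0.69 (adjusted p = 0.022) that was lost without 8w off Tx A, D or E or AA B or E (adjusted p up to 0.0707). Pigment genes of melanocytes followed the same division of libraries, at a mean log2 CPM of 1.12 in A and 1.79 in E against 3.41 to 3.76 in the other 4, and none of the 12 passed (median -0.46). In sections the paper counted fewer follicles in most relapsed mice than in any AA mouse, and it describes growing follicles as back to a normal number. The sources used here do not say which hair score or follicle count belongs to which library.

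Further genes that fell included Cntn1, Eln, Mmp3, Coch and Serpina3n. Cntn1, a neural adhesion molecule, lay at 8.72, 13.1 and 18.2 CPM in AA and at 3.89, 5.56 and 6.31 in 8w off Tx and fell by 1.23 without overlap (SE 0.18, adjusted p = 0.000829). Its call held with each single library left out, and its value was -1.12 relative to healthy skin in 8w off Tx and 0.12 in AA. The call was lost in 4 fits of the deposited TPM values, the centred one included (adjusted p up to 0.31). Over all settings the log2 fold change of Cntn1 ran from -1.32 to -0.19. Of 18 genes of collagens and matrix all 18 values were negative (median -0.55) and 1 passed, Eln, the gene of elastin, which fell by 1.01 (adjusted p = 0.0353). The Eln call was lost without 8w off Tx A or E or AA C or E (adjusted p up to 0.083). Mmp3, a matrix protease, lay at 15.4 to 41.3 CPM in AA and 5.58 to 13.1 in 8w off Tx and fell by 1.32 (adjusted p = 0.022), lost without 8w off Tx D or AA B or E (adjusted p up to 0.0728). Coch, an extracellular matrix protein, fell by 1.96 (adjusted p = 0.0309) and Serpina3n, an inhibitor of serine proteases including granzyme B, by 1.36 (adjusted p = 0.0285). Each of these 2 calls was lost without 8w off Tx A, C, D or E or AA B or E, with adjusted p values of at most 0.0966 and 0.082.

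A further set of higher genes encodes small structured RNAs rather than proteins. The calls included 7 of 93 snoRNAs, 2 of 12 scaRNAs (guides of RNA modification in the Cajal body), both mitochondrial ribosomal RNAs and 1 of 3 ribozymes, all higher in 8w off Tx, against 91 higher and 98 lower of 14177 protein-coding genes. Gm25395, a scaRNA on chromosome 1 at 87776938 to 87777209 (GRCm38), lay at 37.7, 46.0 and 49.8 CPM in AA and at 98.0, 124 and 152 in 8w off Tx. Without overlap it rose 2.72-fold (SE of the log2 change 0.09, adjusted p = 6.67e-10), the smallest p among all genes, with healthy skin at 76.4 CPM between the groups. Named after their values were seen, Scarna6 rose by 0.95 (adjusted p = 0.00024), the snoRNA Snord17 by 1.14 (adjusted p = 0.000829) and Rn7sk, the RNA that holds the elongation factor P-TEFb inactive, by 0.78 (adjusted p = 0.00545). The calls of Scarna6, Snord17 and Rn7sk were not followed through the alternative fits. Rn7s2, a copy of the signal recognition particle RNA with near-identical relatives, rose by 1.33 (adjusted p = 0.0199), lost without AA B (adjusted p = 0.0533).

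Mitochondrial ribosomal RNA moved with the groups as well. The 16S RNA mt-Rnr2 lay at 15660 to 23210 CPM in AA and 29660 to 56970 in 8w off Tx and rose by 1.16 (adjusted p = 0.0177), and the 12S RNA mt-Rnr1 rose by 1.28 (adjusted p = 0.0212). The first call was lost without AA B (adjusted p = 0.0516) and the second without 8w off Tx A or E or AA B or E (adjusted p up to 0.0667). Mitochondrial ribosomal and transfer RNA made up 2.04% ± 0.272 (SD, n = 6) of the counts in AA and 4.25% ± 0.939 (n = 6) in 8w off Tx, with no overlap (two-sided exact permutation test, p = 0.00216, the smallest that 924 arrangements allow). The share was 1.34 to 4.20% in healthy and 2.37 to 3.07% in systemic JAK1i skin. Its part in the calls of other genes was not tested. The 13 mitochondrial messenger RNAs all had positive values (median 0.78), and none passed.

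Under mouse dorsal skin lies the panniculus carnosus, a sheet of skeletal muscle, and muscle RNA was read in every library. The mean log2 CPM of 15 muscle genes was 7.74 to 9.23 in AA and 7.94 to 10.32 in 8w off Tx, highest in libraries A (10.17), D (9.68) and E (10.32). None of the 15 passed, with a median of 1.12 that was 0.53 without A and E. Acta1, the muscle actin, lay at 903 to 2866 CPM in AA and 993 to 6406 in 8w off Tx (log2 fold change 1.28, adjusted p = 0.329). The muscle kinase Mylk4, at 7.27 to 47.7 CPM in AA and 24.4 to 296 in 8w off Tx, rose by 2.64 (adjusted p = 0.0434), and this call was lost in 9 of 12 fits that left out a library (all but those without 8w off Tx B or F or AA A) with an adjusted p of at most 0.11. Synpo2, an actin-binding protein of muscle, rose by 1.22 (adjusted p = 0.0252) and was highest in the same libraries A, D and E, at 136.5 to 163 CPM, a call lost without any one of them or without AA B or E (adjusted p up to 0.0748). With the muscle level as a covariate 181 genes were called, 92 higher and 89 lower.

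**Figure D5:**
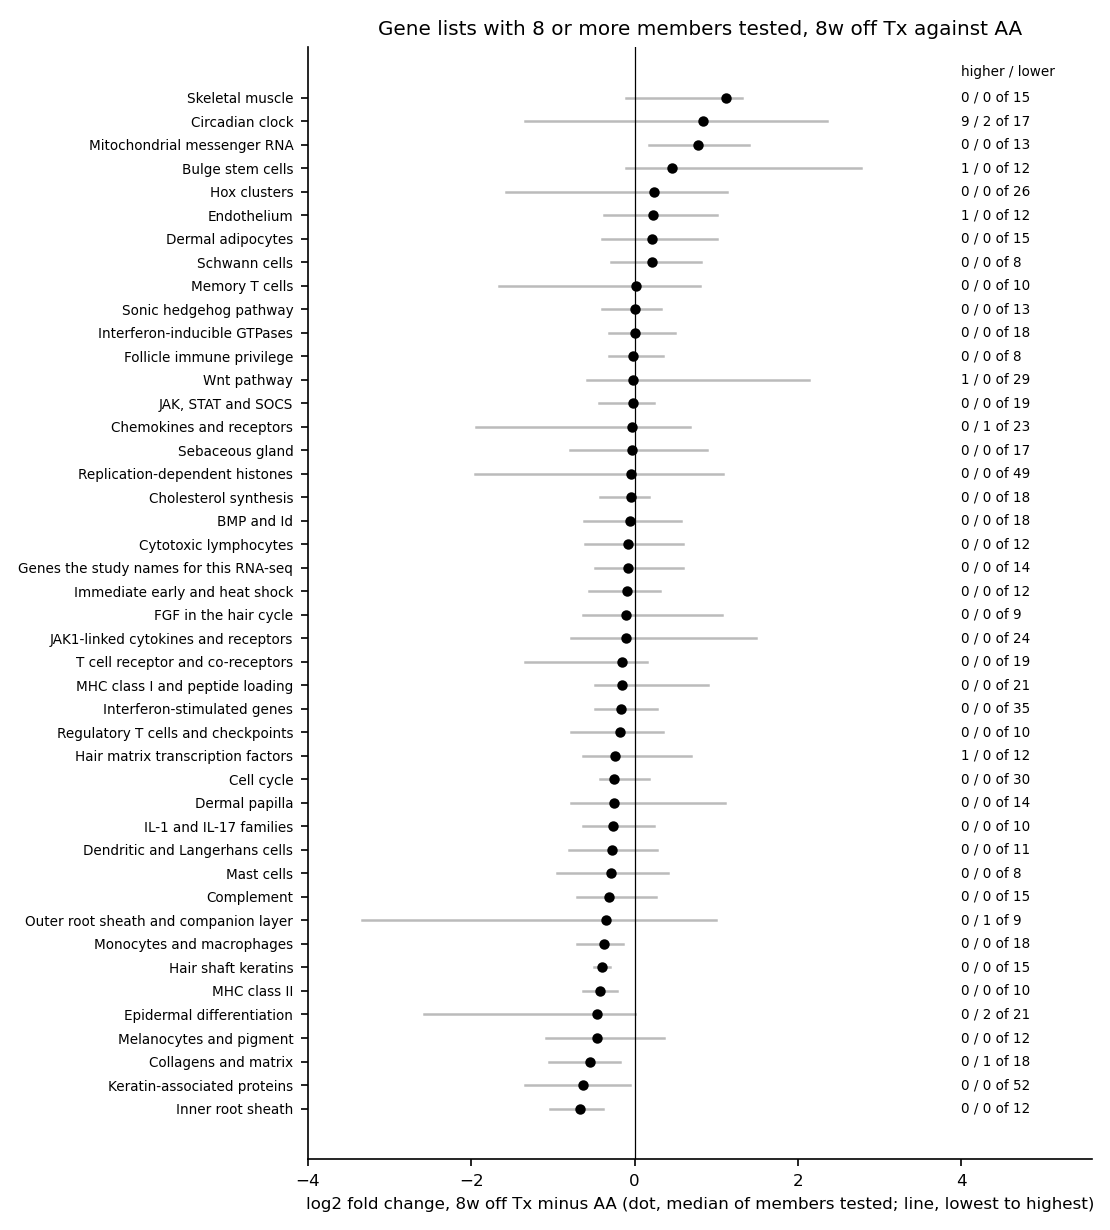
Log2 fold change of 8w off Tx minus AA (x axis) for gene lists with 8 or more members tested, with a dot at the median of the members, a line from the lowest to the highest member, and the numbers of members called higher and lower at the right. The circadian clock, has 9 members called higher and 2 called lower, with its median at 0.84.

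Across all 53 lists 744 different genes were tested, of which 15 rose and 7 fell, against 1.37% of all genes called. The clock gave 11 of these 22 calls, the mitochondrial ribosomal RNAs 2, epidermal differentiation 2, and 7 lists 1 each, among them Emcn, a sialomucin of capillary and venous endothelium, which rose by 1.01 (adjusted p = 0.0407) and was lost in 8 of the 12 fits that left out a library (all but those without 8w off Tx B or F or AA A or E), with an adjusted p of at most 0.0986. No member passed among the other lists, which include cell cycle genes (30 tested, median -0.25), the Sonic hedgehog pathway (13, median 0.00), the sebaceous gland (17, median -0.03) and dermal adipocytes (15, median 0.21).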

How the data were processed

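Libraries were made by the authors after ribosomal RNA depletion (TruSeq Stranded Total RNA RiboGold, no fragmentation), whereas a label states polyA RNA. The authors aligned reads to GRCm38 with HISAT2 2.0.1 and deposited raw counts per gene from featureCounts 1.4.4, without stating the strand setting, so overlapping antisense genes cannot be told apart. The authors also deposited TPM values, and their tool is not given in the sources used here. Per file, 6 of 30 columns matched no sample and were not used. Of 39017 Ensembl IDs 37693 had a symbol.

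Counts of all 24 libraries were fitted in 1 model of the 4 groups with edgeR 4.0.16 in R 4.3.3 (filterByExpr with a minimum count of 10, TMM, quasi-likelihood test, Benjamini-Hochberg over all genes kept). Rose and fell mean an adjusted p below 0.05. Log2 CPM used a prior count of 2. Some genes are not reported here. DESeq2 1.42.0, limma 3.58.1 (voom, and log2 of TPM plus 0.1 or 1) and other alternatives were run, and the script was tested on simulated data. The 12 libraries compared are 12 mice, but the 24 libraries are 18 mice, since the systemic JAK1i libraries come from the 8w off Tx mice and were treated as independent. Depth was 3444193 to 8472874 counts.

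The 53 gene lists and the genes in them were chosen with earlier results of these data known, whereas the 12 libraries were chosen by their labels alone. Genes named by rule were the 15 largest rises and 15 largest falls among calls with a mean log2 CPM of at least 1, genes the study names, and from every list described the top 2 genes by adjusted p and the top 2 by mean CPM. Of the other genes named, members of the clock list are given as that list, and the rest were chosen after their values were seen.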

Additional observations from a re-analysis of the deposited data

Results flagged for a closer look

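A library is given here where its gap to the nearest of the other 5 in its group, divided by the range of the group, exceeded Dixon's critical value for 6 libraries. Of 188 groups examined 10 did so, and chance gives about 1 in 20. No cause was tested.

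Among single genes, Slc26a7 on the log2(CPM + 1) scale was 2.14 in AA library A (nearest 0.79) and 4.28 in 8w off Tx library D (nearest 2.71). The processed pseudogene Gm5559 was 8.17 in 8w off Tx library C (nearest 2.93). Its called rise of 4.18 on the log2 scale was 0.68 without that library, where the call was lost (adjusted p = 0.425).

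Among lists in mean log2 CPM, 8w off Tx library E was lowest for interferon-inducible GTPases at 5.17 (nearest 6.61) and highest for the IL-1 and IL-17 families at 4.98 (nearest 4.59). The library labelled 8w off Tx A was lowest for follicle immune privilege at 4.74 (nearest 4.98). Mitochondrial messenger RNA was lowest in AA library C at 5.06 (nearest 7.83) and in 8w off Tx library F at 4.97 (nearest 8.84). In these 2 libraries 6 neighbouring genes from mt-Co2 to mt-Nd4l (M, 7013 to 10173, GRCm38) summed to 14.7 and 12.5 CPM, against 1615 to 9343 in the other 10 of the 12 libraries, while the other 7 mitochondrial messenger RNAs summed to 6395 and 7423 CPM. Healthy library D and systemic JAK1i library B had as little of the 6 genes, at 13.5 and 25.9 CPM. This block was picked out after its values were seen. Without AA C and 8w off Tx F together 384 genes were called.

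In depth, AA library A had the most counts of its group at 8472874 (nearest 5062861), and 8w off Tx library A the fewest at 3444193 (nearest 5178992).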

How the results depend on the processing

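The count of 222 genes called was 111 with no filter on low counts, 18 in the fit of only the 12 libraries, 613 in DESeq2 (362 higher and 251 lower) and 122 without 8w off Tx A and E (48 higher and 74 lower). Without the systemic JAK1i libraries, added after the data were seen, it was 49. It was 1074, 978 and 384 in limma on log2(TPM + 0.1), log2(TPM + 1) and log2(TPM + 0.1) with no filter, of which 9, 5 and 6 were higher. In TPM the median of all genes moved to -0.51 or -0.39, and after centring on that median, added after the data were seen, 218 genes were called (110 higher and 108 lower). It was 384 without 8w off Tx F and AA C, also added later, and 68 to 493 with single libraries left out. Limma-voom called 283, of which 115 were higher.

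Genes past the study thresholds (4) were 0 in the fit of only the 12 libraries, 12 in DESeq2, 1 in limma-voom, 2 in TPM with no filter, 1 without 8w off Tx A and E, 2 without the systemic JAK1i libraries, 2 in centred TPM, 1 with the muscle covariate, and 1 to 4 with single libraries left out. Clock genes called (11) were 6 in the fit of only the 12 libraries, 8 without 8w off Tx A and E, 10 without the systemic JAK1i libraries and 4, 4 and 3 in the uncentred TPM fits, and 10 to 12 with single libraries left out. The replicate block called 148 genes, 2 of them past the study thresholds. The letters name different mice in the 2 groups, and deviations of same-lettered libraries correlated at -0.24 to 0.41, so the letters pair nothing.

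Npy1r turned from 1.96 to -0.081, -0.038 and -0.081 in the uncentred TPM fits, and Gm5559 to -1.05, -0.99 and -1.05, and to -0.53 when centred. The cause was not tested. For the mitochondrial share no alternative changed the direction or the call, with differences of 1.95 to 2.41 points with single libraries left out and 2.43 points over counts outside the mitochondrial genome. Depth limits genes of few counts, such as Krt24 and Wnt16.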
